A study of Mus musculus with 6 samples.

Results

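The 10 genes described here were the epidermal and injury-induced keratins Krt5, Krt14, Krt15, Krt1, Krt10, Krt77, Krt6a, Krt6b, Krt16 and Krt17, taken by gene symbol from a table of 15667 genes. The set was chosen by the CPM values of Krt17, which separated the genotypes in these same libraries, so the KO and WT values of the 10 genes are given as a description, with no p-value. All 10 genes had a mean of at least 1 CPM (the reads of a gene scaled to a common library total), the limit above which 14306 genes were tested. Of the 10, Krt17 was the only keratin whose KO and WT values did not overlap: it was 1.75-fold higher in WT than in KO (825 ± 43.9 against 472 ± 46.1 CPM, mean ± SD, n = 3 and 3). Among all tested genes, 4.89% had KO values wholly below the WT values and 2.95% wholly above them.

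RNA was sequenced from the ear skin of 3 WT (Adipo+/+) and 3 KO (Adipo-/-) female littermates aged 7 to 8 weeks, each carrying tick bites. The KO mice carried a targeted null allele of Adipoq, the gene of the adipocyte hormone adiponectin, on a mixed B6;129 background. Every cell of these mice carried the allele, so the comparison does not separate skin from other organs. Every mouse of both groups received 10 Ixodes scapularis nymphs, and 1 punch of 3.5 mm was taken from the bitten ear 48 h later. Unbitten skin was not analysed here, so none of the levels below can be called induced by the bite.

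Keratins are the intermediate filament proteins of epithelial cells. A filament is built from pairs of a smaller, acidic type I chain and a larger, basic type II chain, and the genes of each type lie together in a cluster. Dividing basal keratinocytes of the epidermis make Krt5 (type II) with Krt14 and Krt15 (type I). Cells that leave the basal layer switch to Krt1 (type II) with Krt10 (type I), and Krt77 is a type II relative of Krt1. After wounding, infection or inflammation, keratinocytes of the epidermis between the hairs turn on Krt6a and Krt6b (type II) with Krt16 and Krt17 (type I), which are therefore read as stress or injury keratins. The same 4 genes are made without injury in parts of the hair follicle such as the outer root sheath and the companion layer. A full-thickness piece of ear holds all of these sites at once.

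On mm10, the type II members lay on chromosome 15 and the type I members on chromosome 11, all on the minus strand. Krt6b (chr15:101676023-101680293) was followed after 9.6 kb by Krt6a (chr15:101689928-101694305) and after a further 12.8 kb by Krt5 (chr15:101707069-101712905). Krt1 (chr15:101845426-101850786) and Krt77 (chr15:101858731-101869705) were neighbours 7.9 kb apart, 132.5 kb beyond Krt5. On chromosome 11, Krt10 (chr11:99385256-99389364) stood 742.4 kb from Krt15 (chr11:100131759-100135949), and Krt14 (chr11:100203162-100207510), Krt16 (chr11:100246091-100248902) and Krt17 (chr11:100256215-100261029) followed. Krt16 and Krt17 were separated by 7.3 kb with no gene of the table between them. None of the 10 genes overlapped another gene of the table, and in GENCODE M21 each type I member had 8 exons and each type II member 9.

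Some members are so alike that a read may not tell them apart. The coding sequences of Krt6a and Krt6b were 97.8% identical over 1659 aligned bases, with an identical run of 280 bases. They are shown where they differ most, at coding positions 817 to 876 counted from the first base of the start codon, with the 10 differing bases in capitals.
Krt6a: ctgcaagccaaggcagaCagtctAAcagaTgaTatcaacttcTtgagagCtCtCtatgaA
Krt6b: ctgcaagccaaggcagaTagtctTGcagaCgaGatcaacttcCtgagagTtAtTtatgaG

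The 3 type I relatives Krt17, Krt16 and Krt14 are shown where they are most alike. These are coding positions 259 to 318 of Krt17, 346 to 405 of Krt16 and 370 to 429 of Krt14, and the capital marks the 1 base at which Krt16 and Krt14 each differed from Krt17.
Krt17: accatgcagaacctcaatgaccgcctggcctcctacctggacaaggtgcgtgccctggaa
Krt16: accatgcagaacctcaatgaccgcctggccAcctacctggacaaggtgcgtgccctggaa
Krt14: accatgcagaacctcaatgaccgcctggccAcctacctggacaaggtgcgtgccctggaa

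Over the whole coding sequence Krt17 was less like these relatives. It was 84.1% identical to Krt14, with a longest identical run of 71 bases, and 78.2% identical to Krt16, with a run of 55. Of all 50-base words of the Krt17 transcript, 4.0% occurred in transcripts of another gene. The share was 62.0% for Krt6a, 50.1% for Krt6b, 37.6% for Krt16, 14.4% for Krt14 and 12.2% for Krt5, and it was 2.4% or less for Krt10, Krt15, Krt1 and Krt77. In Krt16, 25.2% of the words were found in the predicted gene Gm11597 and 12.4% in Krt14. The authors' quantification divided such reads among genes by an expectation-maximization step. The separate levels of Krt6a and Krt6b, and to a lesser degree that of Krt16, are therefore uncertain. Krt17 had few shared words, 3.7% with Krt14, but Krt14 was far more abundant, at 3526 to 8386 CPM. How many reads were divided between Krt14 and Krt17 was not examined.

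Several properties of the libraries bear on the keratins. The lowest CPM values stood for 3403780 to 6591329 counted reads per library, of which Rn45s, the ribosomal RNA precursor, took 79864 to 114422 CPM. Adipoq was at 30.5, 63.7 and 49.6 CPM in the WT libraries and at 0, 0.560 and 0 CPM in the KO libraries, as the labels say. The 21 interfollicular keratinocyte markers, which hold no member, summed to 21561 to 25510 CPM in the WT libraries and to 20724 to 26116 CPM in the KO libraries. The libraries were set apart by the RNA of growing hair follicles: the 22 genes of the growing (anagen) follicle summed to 68.3, 85.6 and 24592 CPM in the WT libraries and to 2020, 9769 and 1076 CPM in the KO libraries. Of the 22, 7 were at 0 in both WT replicates 1 and 2 and 0 were at 0 in any other library. Krt71, an inner root sheath keratin, was at 0, 0.407 and 4035 CPM in the WT libraries and at 356, 1318 and 159.5 CPM in the KO libraries. The 14 outer root sheath and bulge genes summed to 654, 801 and 1143 CPM in WT and to 1059, 1176 and 1017 CPM in KO. Postn, a matrix protein that fibroblasts also make, took 292, 349 and 227 CPM of these sums in WT and 686, 562 and 554 CPM in KO. The sums are therefore not a clean measure of the follicle. Whether the anagen genes follow the whole amount of follicle was not tested. In whole skin, a lower level can mean fewer cells of a type or less RNA in each, and these cannot be told apart.

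The basal pair was abundant in every library. Krt5, the basal type II keratin, measured 5578, 6338 and 4810.2 CPM in the WT libraries and 7322, 5942 and 6549 CPM in the KO libraries. The groups overlapped, since KO replicate 2 lay below WT replicate 2, and the 6 libraries spanned a 1.52-fold range, the narrowest of the 10 keratins. The log2 fold change, KO minus WT, was 0.25 (SE 0.17) on log2(CPM + 0.5), and it was -0.06 after quantile normalization.

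Krt14, the type I partner of Krt5, measured 8386, 6716 and 3526 CPM in the WT libraries and 8194, 5552 and 7614 CPM in the KO libraries. WT replicate 3, the library with the most anagen follicle RNA, was the lowest of the 6, and WT replicate 1 was the highest. KO minus WT, the difference was 0.27 on the log2 scale (SE 0.32), and it was -0.10 without WT replicate 3 and -0.08 after quantile normalization.

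Krt15, a basal type I keratin that is also strong in follicle stem cells of the bulge, ran in another order. It measured 419, 757 and 1065 CPM in the WT libraries and 375, 726 and 411 CPM in the KO libraries, highest in WT replicate 3. Of the WT libraries, 2 lay above all KO libraries, and WT replicate 1 was within the KO range. Its log2 fold change was -0.53 (SE 0.36) and ranged from -0.90 to -0.22 when 1 library was left out.

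Of the suprabasal pair, Krt10 had the highest mean CPM of the 10 keratins in each group. The mean of Krt1 was below those of Krt14 and Krt5 in each group. Krt10 measured 10626, 11768 and 8608 CPM in the WT libraries and 14501.5, 10727 and 15152 CPM in the KO libraries. KO replicates 1 and 3 were above every WT library, and KO replicate 2 was below WT replicate 2. On the log2 scale KO was higher by 0.38 (SE 0.22).

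Krt1, the partner of Krt10, measured 3435, 5092 and 2559 CPM in the WT libraries and 5129, 3583 and 8554 CPM in the KO libraries. Its libraries fell in exactly the same order as those of Krt10, with KO replicate 3 highest and WT replicate 3 lowest, and the groups overlapped. On the log2 scale KO was higher by 0.60 (SE 0.35), and it was 0.27 without KO replicate 3.

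Krt77 did not follow its neighbour Krt1. It measured 1884, 6249 and 3992 CPM in the WT libraries and 2090.1, 3287 and 4208 CPM in the KO libraries, so that the lowest and the highest libraries were both WT. Its log2 fold change was -0.23 (SE 0.43) and turned to 0.16 without WT replicate 2.

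**Figure D1:**
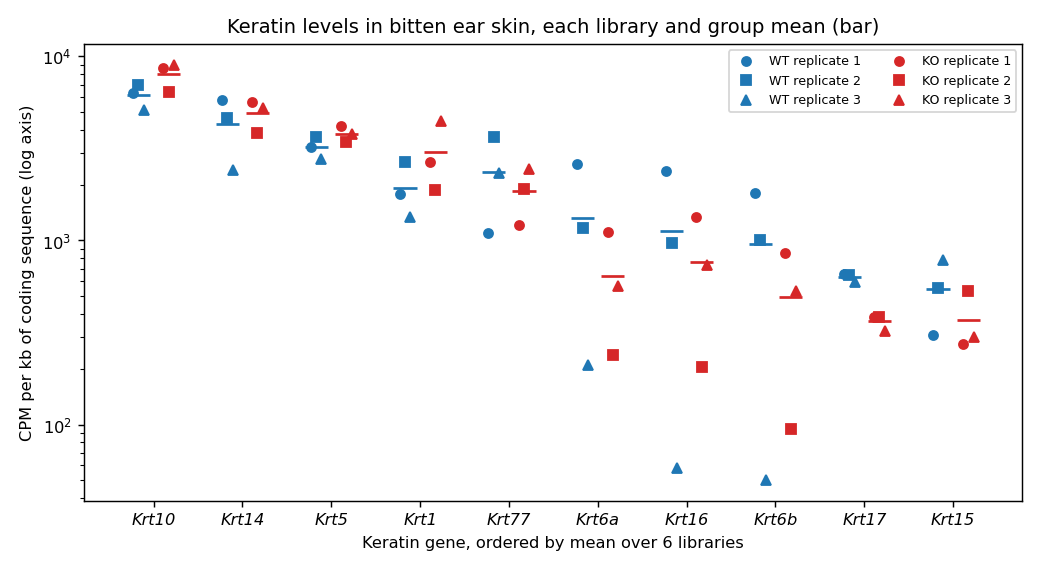
Levels of the 10 keratins in CPM per kb of coding sequence (vertical log axis), ordered along the horizontal axis by their mean over 6 libraries; each point is a library (WT blue, KO red, symbol by replicate number) and each bar a group mean. Krt6a, Krt16 and Krt6b spread far more among the libraries of a group than the other keratins, and the groups are apart for Krt17 alone.

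The injury keratins Krt6a, Krt6b and Krt16 varied most of all, and mostly within the genotypes. Krt16, the type I partner of the Krt6 proteins, measured 3334, 1356 and 81.8 CPM in the WT libraries and 1885, 290.1 and 1039.8 CPM in the KO libraries. WT replicate 1 was the highest and WT replicate 3 the lowest of the 6 libraries, a 40.8-fold range inside which every KO library fell.

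Krt6b measured 3022, 1674 and 83.1 CPM in the WT libraries and 1425, 157 and 887 CPM in the KO libraries, a 36.4-fold range. Krt6a measured 4343, 1932 and 351 CPM in the WT libraries and 1849, 397 and 939.8 CPM in the KO libraries, a 12.4-fold range. Both had the same order of libraries, WT replicate 1, WT replicate 2, KO replicate 1, KO replicate 3, KO replicate 2 and WT replicate 3, and Krt16 differed from it only in that KO replicate 1 came before WT replicate 2.

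No direction could be assigned to these 3 genes. The log2 fold changes were -0.70 (SE 0.90) for Krt6a, -0.36 (SE 1.34) for Krt6b and 0.21 (SE 1.28) for Krt16. Leaving out WT replicate 3 gave -1.71, -1.95 and -1.36, and leaving out WT replicate 1 gave 0.10, 0.64 and 1.31. With the hair follicle score, the mean log2 value of the anagen list, as a covariate they were 0.20, 1.06 and 1.57. For Krt16 the log2 fold change and the ratio of the means (KO over WT 0.67) pointed opposite ways, since the mean of the WT libraries rested on WT replicate 1.

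Of 21 tested injury-activated epidermal genes other than keratins, 11 were, like these 3 keratins, highest in WT replicate 1 and lowest in WT replicate 3, and 5 had the complete order of libraries of Krt16 (3 genes) or of Krt6a and Krt6b (2 genes). The share of all tested genes with these orders was not determined, so no shared programme is read from the counts. Sprr1b, a cornified envelope precursor made in stressed keratinocytes, measured 483, 165 and 10.7 CPM in the WT libraries and 307.5, 42.6 and 161 CPM in the KO libraries, the order of Krt16. S100a8, an alarmin of neutrophils and of activated keratinocytes, was picked out after its values were seen. It measured 143, 49.4 and 5.11 CPM in the WT libraries and 41.0, 14.3 and 15.0 CPM in the KO libraries. That was the order of Krt6a and Krt6b. S100a9, whose mean was above that of S100a8 (78.7 against 44.6 CPM), had neither order. Its highest library was WT replicate 1 and its lowest WT replicate 3. However, its KO replicate 2 (24.7 CPM) lay above its KO replicate 3 (20.3 CPM). Across libraries the injury keratins were highest where anagen follicle RNA was lowest and lowest where it was highest, and the 10 tested neutrophil markers summed to 663, 274 and 89.0 CPM in the WT libraries and to 254, 157 and 146 CPM in the KO libraries. The part of anagen follicle or neutrophil RNA in the levels of these keratins was not tested.

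**Figure D2:**
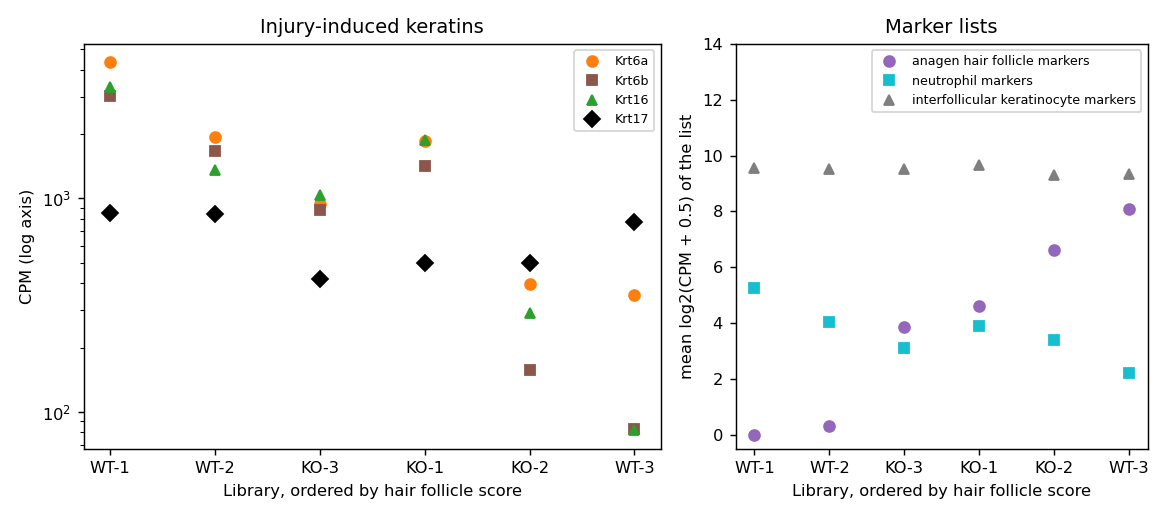
Left, CPM (log axis) of Krt6a, Krt6b, Krt16 and Krt17 in each library; right, the mean log2(CPM + 0.5) of 3 marker lists in the same libraries, which are ordered along both horizontal axes by the hair follicle score. Krt6a, Krt6b and Krt16 are highest in WT replicate 1 and lowest in WT replicate 3, while Krt17 is high in all 3 WT libraries and the keratinocyte markers are level.

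Krt17, which shares its sites of expression with the other injury keratins in textbook accounts, had a different profile. It measured 858, 842 and 775 CPM in the WT libraries and 499, 497 and 418 CPM in the KO libraries. All 3 WT libraries lay above all 3 KO libraries, the lowest WT value being 1.55 times the highest KO value. The libraries of a genotype agreed closely, within a 1.11-fold range in WT and a 1.19-fold range in KO, although they differed by up to 40.8-fold in Krt16. The log2 fold change was -0.81 (SE 0.11).

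These values were what selected the set, so they carry no test. The members nearest to separation on the lower side were Krt15, Krt6a and Krt6b, each with 2 of 3 WT libraries above all KO libraries. On the higher side the lowest KO library of Krt5 and of Krt10 was at 0.94 and 0.91 times the highest WT library. The log2 fold change of Krt17 ranged from -0.85 to -0.73 when 1 library was left out. Its sign was the same under all 16 alternative settings, but many of them could not change it. With 1 library left out the lack of overlap fixed the sign, and the filters, the trend and the replicate block leave the estimate as it is. The log2 fold change was -0.79 with the hair follicle score and -0.81 with the keratinocyte score as a covariate. WT replicate 3, with the most anagen follicle RNA and the least Krt16, was at 775 CPM of Krt17, and WT replicate 1, at the other extreme of both, was at 858 CPM.

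**Figure D3:**
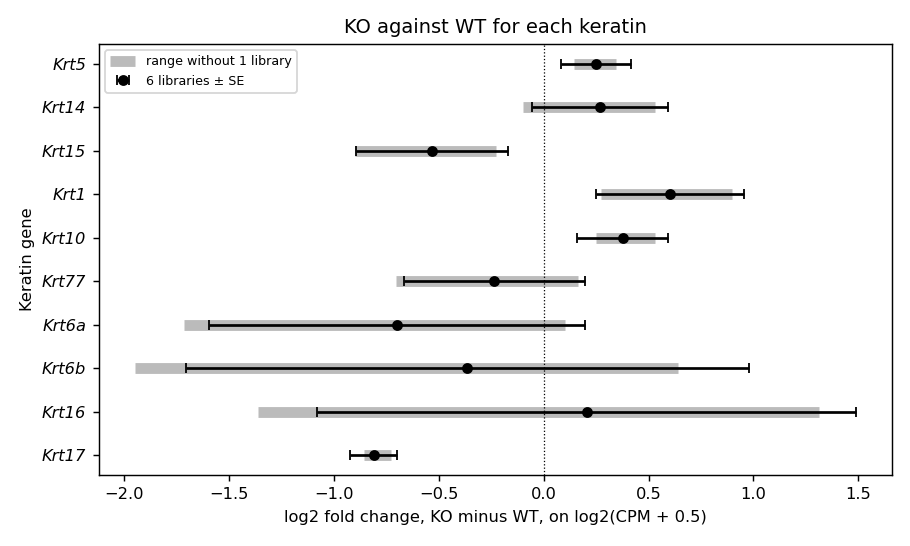
Log2 fold change, KO minus WT, of each keratin on log2(CPM + 0.5) (horizontal axis), as the estimate from 6 libraries with its SE (point and whisker) and as the range of estimates with 1 library left out (grey bar). The estimate for Krt17 is -0.81 and its grey bar lies below 0, which follows from the lack of overlap that chose the set. The bars of Krt6a, Krt6b and Krt16 reach to both sides of 0.

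How many keratins separated the genotypes depended on single libraries. With all 6 libraries it was Krt17 alone. Without WT replicate 1 it was 2, Krt15 and Krt17, both lower in KO, where 20.2% of all tested genes had no overlap in either direction. Without WT replicate 3 it was 3, Krt6a, Krt6b and Krt17, all lower in KO (19.4% of all tested genes). Without WT replicate 2 it was 4, Krt17 lower and Krt5, Krt1 and Krt10 higher in KO (15% of all tested genes), and without KO replicate 2 it was 5, with Krt15 lower in KO as well (19.1%). Without KO replicate 1 (16.5%) or KO replicate 3 (15.6%) it was Krt17 alone. Nothing about the keratins is read from these counts, since the set was selected on the same libraries.

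Set on a scale per length, which allows genes to be compared, the order of the levels over the 6 libraries was Krt10 (7069 ± 1484 CPM per kb of coding sequence, SD, n = 6), Krt14 (4590.1 ± 1281), Krt5 (3500 ± 495), Krt1 (2473 ± 1113), Krt77 (2109 ± 935), Krt6a (986 ± 899), Krt16 (946 ± 844), Krt6b (727 ± 661), Krt17 (499 ± 152) and Krt15 (457 ± 200). These SDs span both genotypes, and the order was not the same in each: Krt77 was above Krt1 in WT (2355 against 1934) and below it in KO (1862 against 3012). Krt6a was above Krt16 in WT (1331 against 1131) and below it in KO (640.2 against 762), and Krt17 was above Krt15 in WT (635 against 546) but not in KO (363 against 368). Neighbours in this order were compared within libraries by an exact two-sided sign-flip permutation test, adjusted over 9 pairs by the Benjamini-Hochberg method. None of the 9 pairs passed, and the smallest p that 6 libraries allow is 0.03125. After adjustment over 9 pairs, 1 pair at that p cannot pass by itself. The test could therefore not settle the order of a single pair of neighbours, and no conclusion is drawn from the failure. Krt10 was above Krt14 in 6 of 6 libraries, by 0.65 on the log2 scale (exact p = 0.03125, adjusted p = 0.169). Krt14 was above Krt5 in 5 of 6 libraries, by 0.35 on the log2 scale (exact p = 0.0938, adjusted p = 0.169). Krt6b and Krt17 were the least settled pair, with Krt6b higher in 4 of 6 libraries and differences of -3.58 to 1.46 on the log2 scale.

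The 10 keratins took 4.19%, 4.27% and 2.59% of all counted reads in WT and 4.33%, 3.12% and 4.58% in KO. Because type I and type II chains pair, their summed levels per kb of coding sequence were set against each other. The type I to type II ratio was 1.46, 1.14 and 1.34 in WT and 1.61, 1.5 and 1.32 in KO, so type I members exceeded type II members in all 6 libraries and the groups overlapped. Other keratins of either type, such as the abundant type II Krt2, were not part of these sums.

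Within the total of the 10 keratins, the injury trio Krt6a, Krt6b and Krt16 took 25.5%, 11.6% and 2.0% in WT and 11.9%, 2.71% and 6.26% in KO. The basal pair Krt5 and Krt14 took 33.3%, 30.6% and 32.2% in WT and 35.9%, 36.9% and 30.9% in KO, a much steadier share. The suprabasal pair Krt1 and Krt10 took 33.6%, 39.5% and 43.2% in WT and 45.4%, 45.9% and 51.8% in KO, so that every KO library was above every WT library. Since shares of a fixed total move against each other, the large injury share of WT replicate 1 lowers its suprabasal share. Krt17 took 2.05%, 1.97% and 3.0% in WT and 1.15%, 1.59% and 0.914% in KO, again without overlap. How often such shares separate the genotypes among other genes was not determined, so nothing is read from either lack of overlap.

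**Figure D4:**
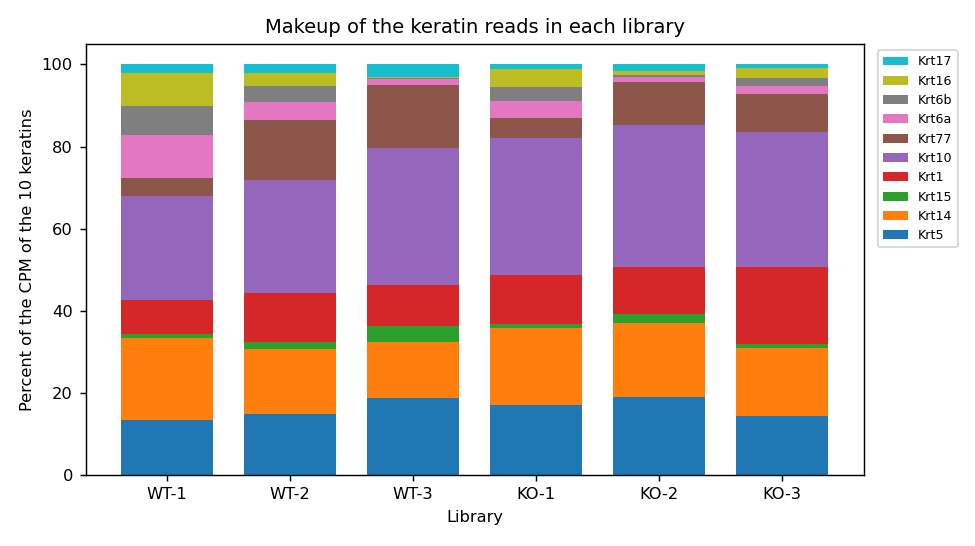
Share of each keratin in the summed CPM of the 10 keratins (vertical axis, percent, from 0) in each library (horizontal axis). Krt6a, Krt6b and Krt16 together run from 25.5% in WT replicate 1 to 2.0% in WT replicate 3, and the Krt17 band is thinner in the KO libraries.

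Ratios between members, per kb of coding sequence, remove what the libraries share in keratinocyte RNA. Krt17 over Krt5 was 0.206, 0.178 and 0.216 in WT and 0.0914, 0.112 and 0.0856 in KO. Krt17 over Krt14 was 0.114, 0.140 and 0.246 in WT and 0.0681, 0.10 and 0.0614 in KO. In both ratios all KO libraries were below all WT libraries, which follows in part from the values of Krt17 that chose the set.

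Krt14 over Krt5 was 1.80, 1.27 and 0.878 in WT and 1.34, 1.12 and 1.39 in KO, and Krt10 over Krt1 was 3.51, 2.62 and 3.82 in WT and 3.21, 3.40 and 2.01 in KO. Both pairs overlapped between genotypes and stayed within a 2.05-fold range. Krt16 over Krt17, both type I and next to each other on chromosome 11, was 3.59, 1.49 and 0.0974 in WT and 3.49, 0.539 and 2.29 in KO, a 36.9-fold range. Krt16 over Krt6b, the partners of one filament, was 1.30, 0.957 and 1.16 in WT and 1.56, 2.19 and 1.39 in KO, above WT in all 3 KO libraries. Part of the reads of both genes had to be divided with relatives. How often ratios of other genes separate the genotypes was not determined, so nothing is read from this lack of overlap.

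The likeness of profiles was measured as the root mean square difference of log2(CPM + 0.5) values over the 6 libraries, after centring each gene on its mean. The closest members were Krt5 and Krt10 (0.13), Krt14 and Krt10 (0.28), Krt1 and Krt10 (0.31) and Krt5 and Krt14 (0.31), all of them keratins of unstressed epidermis. Krt6b and Krt16 were 0.37 apart. Krt17 was closest to Krt15 (0.53) and stood 1.83 from Krt16 and 1.86 from Krt6b. By likeness to Krt17, Krt15 ranked 9980 among the 14305 other tested genes.

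The 5 genes with the profile most like that of Krt17 were Hoxa3 (0.08), Btla (0.13), Mtfp1 (0.13), Nr4a1 (0.13) and Fasn (0.13). Their lower values in KO follow from being picked for likeness to Krt17. Fasn, fatty acid synthase, was at 811, 808 and 759.5 CPM in the WT libraries and at 539, 576 and 501 CPM in the KO libraries. Nr4a1, an immediate early nuclear receptor, was at 54.9, 58.6 and 58.5 CPM in the WT libraries and at 34.9, 41.2 and 26.7 CPM in the KO libraries. The other 3 were near the detection limit, with Hoxa3, a homeobox factor, at 1.99 to 4.27 CPM, Mtfp1, a mitochondrial fission protein, at 1.18 to 3.63 CPM and Btla, a lymphocyte inhibitory receptor, at 0.588 to 1.83 CPM, where 3 reads amounted to 0.455 to 0.881 CPM.

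The genes around the keratins in the epidermal programme were taken from fixed lists and tested with limma over all 14306 genes. Of these genes, 1.82% were lower and 1.06% higher in KO at an unadjusted p below 0.05, 0.014% (2 genes) passed at an adjusted p below 0.05, and the median log2 fold change was -0.03. No gene of any list passed after adjustment, and none of those called at an unadjusted p below 0.05 can be said to have changed. The counts of the lists also moved with single libraries, as given beside them.

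Of 20 other epithelial keratins, 7 were tested and 0 passed in either direction at an unadjusted p below 0.05 in limma (median log2 fold change 0.33). Krt2, the late suprabasal type II keratin, was the most abundant at 10509, 3887 and 4581 CPM in the WT libraries and 15156, 8915 and 8313 CPM in the KO libraries, with a log2 fold change of 0.86 (SE 0.40, limma adjusted p = 0.998). Krt80 and Krt79 were the next most abundant, at 899 and 320.5 CPM on average, with log2 fold changes of -0.03 and -0.20. With 1 library left out 0 or 1 was lower (1 without WT replicate 1) and 0 or 1 higher (1 when WT replicate 1 or 3 or KO replicate 2 was left out), and with the hair follicle covariate 2 were lower and 1 was higher.

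Of the 17 filament linkers and anchors tested, which tie keratin filaments to desmosomes and hemidesmosomes, 0 passed in either direction (median 0.02). Dsp, Eppk1 and Plec, the most abundant, had log2 fold changes of 0.05, -0.02 and 0.01. The 21 keratinocyte markers were likewise at 0 and 0 (median 0.04), and Trp63, the master regulator of the basal layer, had a log2 fold change of 0.04 (SE 0.09). Without WT replicate 3, 1 linker and 2 keratinocyte markers were lower, without WT replicate 1 it was 1 linker, and without KO replicate 2, 3 keratinocyte markers were higher.

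Of 30 regulators of keratin genes, 1 was lower and 0 were higher (median -0.08). Fos, an AP-1 subunit, was at 179, 128 and 54.7 CPM in the WT libraries and 95.6, 14.6 and 20.9 CPM in the KO libraries, overlapping, with a log2 fold change of -1.79 (limma adjusted p = 0.998). The most abundant regulators, Klf4, Trp63 and Cebpa, had log2 fold changes of -0.16, 0.04 and 0.10. The count of lower regulators was 5 without WT replicate 3, 6 with the hair follicle covariate and 0 without any 1 of WT replicate 2 and KO replicates 2 and 3, and 1 was higher without WT replicate 1 or WT replicate 3.

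Of the 21 tested inducers of injury keratins and their receptors, 1 was lower and 1 higher (median -0.22), and both are ligands of the EGF receptor. Areg, amphiregulin, was at 28.6, 6.51 and 4.62 CPM in the WT libraries and 3.03, 2.24 and 1.18 CPM in the KO libraries, all KO below all WT, with a log2 fold change of -2.0 (limma adjusted p = 0.998). Ereg, epiregulin, went the other way, at 74.6, 101 and 96.6 CPM in the WT libraries and 131, 104 and 130.2 CPM in the KO libraries, with a log2 fold change of 0.43 (limma adjusted p = 0.998). The receptor Egfr was level, with a log2 fold change of -0.09 (SE 0.16). The list rested on single libraries, with 7 lower without WT replicate 3 and 0 lower without KO replicate 3. The 1 higher gene was lost without any 1 of WT replicate 1 and KO replicates 1 and 3, 2 were higher without KO replicate 2, and 3 and 4 were lower with the hair follicle and the keratinocyte covariate.

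Of the same 21 injury-activated epidermal genes, 1 was lower and 0 higher in KO (median -0.10), a count that changed direction with the library left out: 8 were lower without WT replicate 3, whereas 0 were lower and 2 higher without WT replicate 1. Without KO replicate 3 it was 0 and 0, and with the hair follicle covariate 7 were higher. Inhba, the activin A subunit, was at 20.1, 15.5 and 7.75 CPM in the WT libraries and 6.52, 8.69 and 6.17 CPM in the KO libraries (log2 fold change -0.89, limma adjusted p = 0.998). Sprr1a, the most abundant of the list, was at 402, 208 and 593 CPM in the WT libraries and 414, 286 and 207 CPM in the KO libraries, and unlike Sprr1b it was highest in WT replicate 3.

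Other compartments that contain or border the keratins were read in the same fit. Of 22 anagen follicle genes 0 passed in either direction (median 2.51), which rested on WT replicate 3: without it 20 were higher in KO. With the hair follicle covariate 5 were lower and 4 higher. That covariate is the mean of these same genes, so differences to both sides were built in and nothing is read from these counts. Of 14 outer root sheath and bulge genes, which come from sites that make Krt17 without injury, 0 were lower and 1 was higher (median -0.11): Postn, a matrix protein that fibroblasts also make, with a log2 fold change of 1.07 (limma adjusted p = 0.702). Krt75, the companion layer keratin, was at 6.54, 9.15 and 297 CPM in the WT libraries and 32.8, 127 and 23.5 CPM in the KO libraries, an order unlike that of Krt17. Without WT replicate 3, 4 genes of this list were higher, and without KO replicate 3, 1 was lower.

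Of 12 sebaceous gland genes, 3 were lower and 0 higher (median -0.23). These were Fasn (log2 fold change -0.56, limma adjusted p = 0.890), given above, and, both with a limma adjusted p of 0.998, Pparg and Scd1. Pparg, the lipogenic nuclear receptor, was at 13.6, 13.6 and 15.7 CPM in the WT libraries and at 5.92, 11.8 and 7.05 CPM in the KO libraries. Scd1, a fatty acid desaturase, was at 4500.4, 4224 and 3089 CPM in the WT libraries and at 2768, 3232 and 2291 CPM in the KO libraries, overlapping. Elovl4, at 968 CPM on average, had a log2 fold change of 0.02, and the other 11 genes had negative values. Without KO replicate 1 or KO replicate 3 the count of lower genes was 1. All 13 adipocyte genes, given below, also had negative values. Which cells gave the RNA of Fasn, Pparg and Scd1 was not tested.

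Of 15 skeletal muscle genes 5 were lower and 0 higher (median -0.51), namely Myh1 (-0.51), Myl1 (-0.70), Mb (-0.46), Casq1 (-0.61) and Mylpf (-0.51), each with a limma adjusted p of 0.998. Their number was 1 without WT replicate 2 or KO replicate 2 and 13 without KO replicate 3. Of 13 adipocyte genes 4 were lower and 0 higher (median -0.72), namely Retn (-1.22), Acvr1c (-1.04), Fabp4 (-0.94) and Car3 (-0.70), each with a limma adjusted p of 0.998. Their number was 0 without WT replicate 2 or KO replicate 1, 11 without KO replicate 2, and 9 and 8 with the hair follicle and the keratinocyte covariate. The medians of these lists lay on the same side as Krt17, and the part of these tissues in the level of Krt17 was not tested.

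Of 10 neutrophil genes and 20 cell cycle genes 0 passed in either direction (medians -0.55 and 0.19). Without WT replicate 3, 4 neutrophil genes and 1 cell cycle gene were lower, and without WT replicate 1, 3 cell cycle genes were higher.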

How the data were processed

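The deposited table holds CPM per gene. According to the study's methods and the submitters' processing notes, the authors aligned paired-end reads of 6 ear skin libraries with STAR 2.7.3a to mm10, quantified them by expectation-maximization in Partek Flow (Ensembl release 100), divided by library totals and added an offset of 0.0001, which was subtracted here. Sources used here do not give strand use. Depth was inferred from the smallest values; 91.9 to 92.6% of low values were whole multiples of 1 read, too few for a count model.

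Genes that averaged 1 CPM or more were tested with limma 3.58.1 (R 4.3.3; lmFit, eBayes with trend, two-sided) on log2(CPM + 0.5), adjusted by the Benjamini-Hochberg method over 14306 genes, with 1361 not tested. P-values measure the spread between these 3 and 3 mice. The script was tested on simulated data. Levels per kb used the coding length of the GENCODE M21 transcript, and sequences were read from its GRCm38 files with Biopython 1.88, matching 10 of 10 genes.

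The members and gene lists were chosen with earlier results of these data known. Named genes were the members, Adipoq, the 5 genes most like Krt17, and of each list up to 5 genes with an unadjusted p below 0.05 and up to 3 of the highest mean. Rn45s and S100a8 were named outside this rule, after their values were seen. Alternatives were pseudocounts of 0.1 and 2, no filter or 5 CPM, median-of-ratios and quantile scaling, no trend, 2 covariates, a replicate block, and each library left out.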

Additional observations from a re-analysis of the deposited data

How the results depend on the processing

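Over the 16 alternatives the log2 fold change of Krt17 ranged from -0.85 to -0.73 with 1 library left out and from -0.81 to -0.78 otherwise. Its sign could not change with 1 library left out, since all WT values lay above all KO values. The filters, the trend and the replicate block leave the estimate as it is and change only its SE. Of 160 member values under alternatives, 159 moved by less than 1 SD, the larger of the WT and KO SDs on the log2 scale. Krt5 moved from 0.25 to -0.06 with quantile scaling. That SD was 1.85 for Krt6a, 2.78 for Krt6b and 2.79 for Krt16, so these 3 could change sign within it. They did so under 2, 4 and 3 of the 16 alternatives, so the count of 159 does not make their values stable. The number of keratins without overlap was 1 under both rescalings and ranged from 1 to 5 with 1 library left out; the other alternatives leave the compared values as they are. Over all genes, the counts lower and higher at an unadjusted p below 0.05 (260 and 152) became 193 and 232 with quantile scaling, 215 and 210 with median-of-ratios scaling, and 561 and 304 with the hair follicle covariate, where 3 and 6 passed after adjustment against 1 and 1. The share of lower among called genes was thus 63.1%, 45.4% with quantile and 50.6% with median-of-ratios scaling, which moved the median of all genes from -0.03 to 0.01 and to -0.0033. With 1 library left out, the counts ranged from 147 (without WT replicate 2) to 395 (without WT replicate 3) lower and from 89 (without KO replicate 3) to 313 (without WT replicate 3) higher, and after adjustment from 0 to 2 lower and from 0 to 14 higher; the cause was not tested. The labels do not say that replicate numbers pair the samples. Deviations of same-numbered WT and KO libraries correlated at 0.38, -0.31 and -0.22 across genes, and those of differently numbered libraries at -0.38 to 0.45. With 3 libraries a group, these correlations cannot decide whether samples were paired. With the replicate block 414 genes were lower and 177 higher, Krt17 was at -0.81 (SE 0.09), and the lower genes numbered 13 in the muscle, 9 in the adipocyte and 5 in the inducer list. Without the trend the regulators had 0 lower, the inducers 0 higher, and the muscle and adipocyte lists 2 lower each, and with quantile scaling the muscle list had 3. None of the 9 neighbouring pairs of levels passed without division by length either. With 5 libraries the smallest exact p is 0.0625, so no pair could pass there. At the SEs of 0.90 to 1.34 of Krt6a, Krt6b and Krt16, a difference between genotypes of the size of Krt17 was not detectable with 3 mice a group.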
